A study of Drosophila melanogaster with 8 samples.

Results

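The families described are the LTR retrotransposons of the BEL/Pao superfamily in Drosophila melanogaster ovaries. They were taken by name, ignoring case, as roo, rooA, diver, diver2, Max, aurora and 3S18. Of these 7 names 6 were listed among the 111 transposable element (TE) families of both tables, and 3S18 was not listed. RNA was measured by sequencing polyA-enriched RNA from whole ovaries in 8 samples, 4 groups of 2 biological replicates. The no-KD and piwi-sKD groups shared 1 genotype, with tj-GAL4, tubP-GAL80[ts] and the hairpin sh-piwi in a w background. No-KD flies stayed at 20°C, where GAL80 blocks GAL4, and piwi-sKD flies spent the last 5 days at 25°C, where the hairpin is made. The double knockdowns carried tj-GAL4 / + and GAL80[ts] sh-piwi, over sh-w in piwi-sKD,ctrl-sKD and over sh-dcr2 in piwi-sKD,dcr2-sKD, and had the same 5 days at 25°C. These are the control and the Dcr2 double knockdown. Their library names carry a number other than 25 where the names of the other libraries carry the temperature, and the stated growth conditions were followed. All 4 groups therefore carried sh-piwi. The driver tj-GAL4 is active in the somatic follicle cells and not in the germline, but whole ovaries were sequenced, so fewer cells of a type and less RNA per cell cannot be told apart. Piwi depletion and the shift in temperature cannot be told apart between the no-KD and piwi-sKD samples. The paper reports a separate control by RT-qPCR, with a GAL80 that does not respond to temperature. None of the TEs tested there rose after the shift, but they were a subset that its main text does not name. Gene rows were not used here, so neither the tissue markers nor the RNA of piwi and Dcr2 were checked.

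LTR retrotransposons copy themselves through an RNA that is reverse transcribed and inserted elsewhere, and they encode the Gag and Pol proteins needed for this between the LTRs, the direct repeats that hold the promoter. BEL/Pao elements form a group of their own beside the Ty3/gypsy group, to which ZAM and gypsy belong, and the Ty1/copia group. In follicle cells Piwi, guided by piRNAs, silences TEs at transcription, while Dcr2 cuts double-stranded RNA into siRNAs that act on the finished transcript. The germline has further PIWI proteins that were not targeted here.

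The reference annotation (BDGP6.54) shows how unlike the 6 families are as sets of insertions. Roo had 144 annotated insertions, with a median span of 8990.5 bp, and 89 of them were over 8000 bp. A further 21 spans of roo lay between 300 and 500 bp, apart from the long ones. Diver had 13 insertions, of which 10 lay between 6000 and 6200 bp. Diver2 had 49 with a median span of 435 bp, and 7 were over 4000 bp. RooA had 17 (median 1298 bp), Max 23 (median 1050 bp, with 1 span listed under a pair of identifiers counted once) and aurora 2, of 3124 and 4811 bp. Annotated spans can hold other insertions within them.

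**Figure D1:**
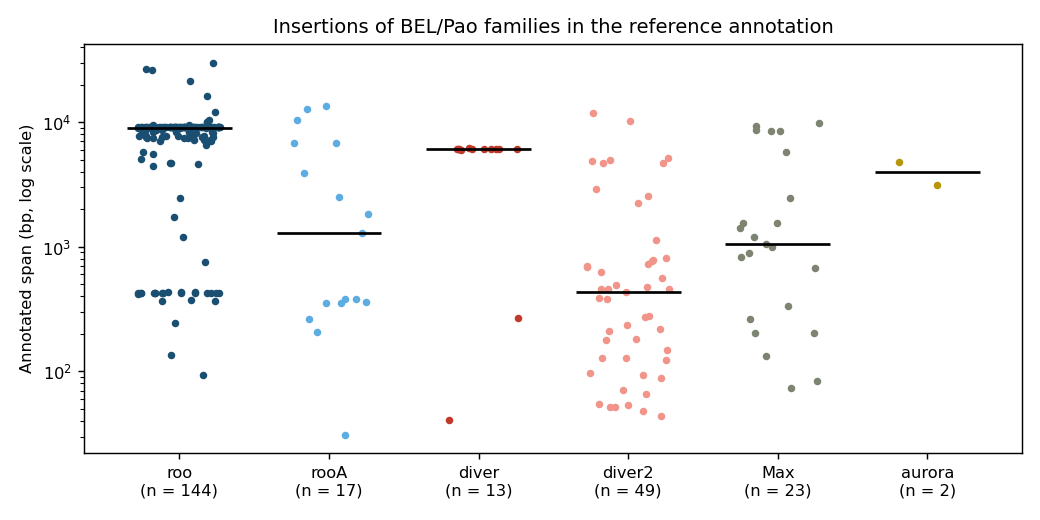
Span of every annotated insertion of the 6 BEL/Pao families in the reference annotation, in bp on a log axis, with 1 point per insertion and a black line at the median. The points of roo gather near its median of 8990.5 bp and again between 300 and 500 bp, and those of diver near 6133 bp, while diver2 is spread widely around a median of 435 bp.

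Roo insertions lay in introns in 54.2% of cases (78 of 144), equally often in the direction of the gene (38) and against it (38), with 2 in introns of genes on both strands. The share in introns was 35.3% for rooA, 26.5% for diver2, 23.1% for diver and 17.4% for Max, and both aurora insertions lay outside genes. None of the 6 families had an annotated insertion overlapping flam, the piRNA cluster gene active in follicle cells (chromosome X from 21631891 to 21790731). The longest roo span ran on chromosome X from 21523759 to 21553766 (minus strand, 30008 bp) and touched an exon of lncRNA:CR46472, a gene without a protein product. The longest spans of the others lay outside annotated genes: diver on chromosome 2R from 1465394 to 1471557, diver2 on 2R from 5048677 to 5060606, rooA on 2R from 4855816 to 4869276, Max on 2L from 21546181 to 21556050, and aurora on X from 23347019 to 23351829. The insertions carried by the flies studied were not analysed here, and a family's counts cannot be given to a single insertion.

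The values were read counts per family divided by a size factor per sample. The TE reads behind them ran from 78807 to 343458 per library. Across all TE families the median log2 fold change was 0.47 in piwi-sKD against no-KD and 0.24 in piwi-sKD,dcr2-sKD against piwi-sKD,ctrl-sKD, so the changes of the BEL/Pao families are also given relative to these shifts. Tests were made with limma on log2(normalised count + 1), adjusted over all families of a table, with a threshold of 0.05. Besides the normalised values as deposited, 4 scalings based on TE families were tried. Samples were centred on the median level of all families, or on that of DNA and non-LTR families, or had their TE sum made equal. The last was a scaling on the median deviation of families from their means, added after the shift was seen. In that order they moved the median log2 fold change of all families to -0.70, -0.078, -0.88 and -0.044 in piwi-sKD against no-KD. In piwi-sKD,dcr2-sKD against piwi-sKD,ctrl-sKD it was -0.29, -0.21, -0.48 and -0.012. A turn of sign under these scalings is to be read against these medians.

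Piwi depletion was first examined through diver and diver2, which moved in opposite directions. Diver fell and diver2 rose, and both calls held under all 14 alternatives tried. Of the 6 families 3 were higher in piwi-sKD (roo, diver2 and Max), 1 was lower (diver) and 2 did not pass the test (rooA and aurora). Among all families tested, 55.0% were higher and 5.50% lower, so the 3 higher calls were near the background, and the lower call was in a direction that few families took. The groups did not overlap for any of the 6, 5 of them higher and 1 lower in piwi-sKD, against 73.4% and 11.0% of all families. None was more than 2-fold lower, as were 1.85% of all families with a ratio.

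Diver stood at 838.8 and 786.1 normalised counts in the no-KD samples and at 483.5 and 455.8 in the piwi-sKD samples. Every piwi-sKD sample was thus well below every no-KD sample, with 468 to 779 reads behind each value. The ratio of the group means was 1.73-fold lower in piwi-sKD, and the log2 fold change was -0.79 ± 0.11 (SE, n = 2 per group; limma adjusted p = 0.000239). It ranked 106 of 109 families from the highest change, and lay 1.26 log2 units below the median of all families. Under the 4 other scalings of the samples the change ran from -2.16 to -1.30.

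Diver2 was at 358.0 and 291.6 normalised counts in no-KD and at 1079 and 1359 in piwi-sKD. Both piwi-sKD samples were far above both no-KD samples, although the piwi-sKD samples differed between themselves by 5.83 times the SD that read counting alone gives. The ratio of means was 3.75, the log2 fold change 1.90 ± 0.15 (SE, n = 2 per group; limma adjusted p = 7.16e-06). Diver2 was the only BEL/Pao family past 2-fold, as were 28.7% of all families with a ratio, and it ranked 19 of 109. Its change was positive under the 4 other scalings, from 0.54 to 1.39, and past the threshold in each.

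**Figure D2:**
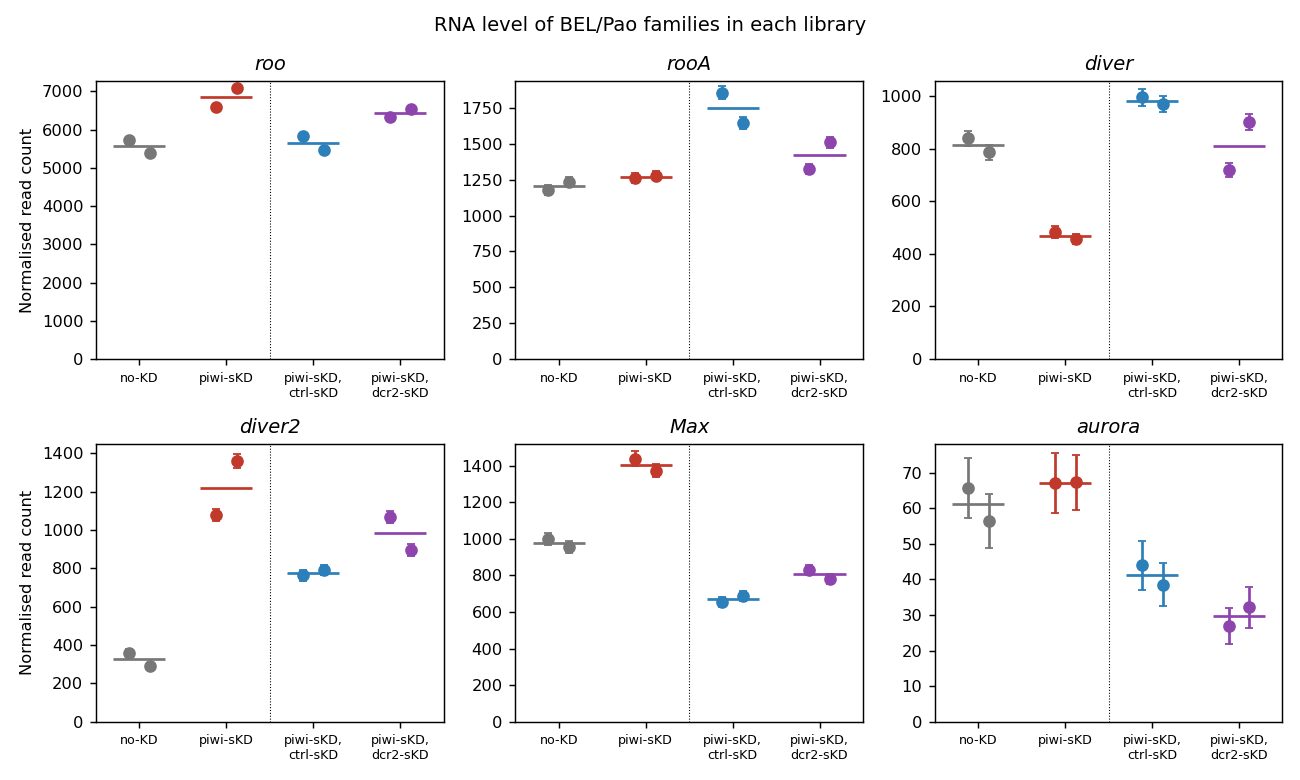
Normalised read count (linear axis from 0) of each BEL/Pao family in each of the 8 libraries. Points are libraries with the SD of read counting, horizontal lines are group means, and the dotted line separates the 2 tables, which were normalised apart. Diver drops from 838.8 and 786.1 to 483.5 and 455.8 between no-KD and piwi-sKD, and diver2 goes from 358.0 and 291.6 to 1079 and 1359.

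Roo, by far the family with most insertions, changed little. It was at 5741 and 5393 normalised counts in no-KD and at 6599 and 7100 in piwi-sKD. The groups were separate, and both piwi-sKD samples were higher. The log2 fold change was 0.30 ± 0.10 (SE, n = 2 per group; limma adjusted p = 0.0346), which is 0.17 below the median of all families. This call did not hold: without no-KD replicate 1, no-KD replicate 2 or piwi-sKD replicate 2 the limma adjusted p was 0.130, 0.257 and 0.126, and it was 0.158 with the replicate number as a block and 0.0824 without a mean-variance trend. Under the 4 other scalings the sign turned, with values from -1.07 to -0.21, while the median of all families ran from -0.88 to -0.044.

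Max was at 998.4 and 955.6 normalised counts in no-KD and at 1439 and 1373 in piwi-sKD. Its samples lay close together within each group and well apart between groups. Its log2 fold change was 0.52 ± 0.10 (SE, n = 2 per group; limma adjusted p = 0.00172), past the threshold with each library left out in turn. It was 0.06 above the median of all families, and with samples scaled on the median deviation of families it was 0.011 (limma adjusted p = 0.899), so Max moved as the middle of the families did. The other 3 scalings gave negative values, from -0.84 to -0.022.

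RooA, close to roo by name but counted apart, was at 1177 and 1235 normalised counts in no-KD, and the piwi-sKD samples were at 1259 and 1278. The groups did not overlap, but the 4 values lay close together. The log2 fold change of rooA was 0.07 ± 0.09 (SE, n = 2 per group; limma adjusted p = 0.492), with a 95% interval from -0.14 to 0.29, which leaves out changes as large as that of diver or diver2. It was 0.039 without no-KD replicate 1. Relative to the median of all families rooA was 0.40 lower, and it was negative under the 4 other scalings, from -1.30 to -0.44.

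Aurora had the lowest counts of the 6, at 65.8 and 56.5 normalised counts in no-KD and 67.2 and 67.3 in piwi-sKD. With 56 to 76 reads behind each value, the counting SD of a library was 7.55 to 8.42 normalised counts, more than the difference between the group means of 61.1 and 67.2. The log2 fold change was 0.14 ± 0.19 (SE, n = 2 per group; limma adjusted p = 0.526; 95% interval -0.31 to 0.59). It was 0.25 without no-KD replicate 1 and 0.031 without no-KD replicate 2. A change of this size was not detectable at this depth, and its sign turned under the 4 other scalings, from -1.21 to -0.37.

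**Figure D3:**
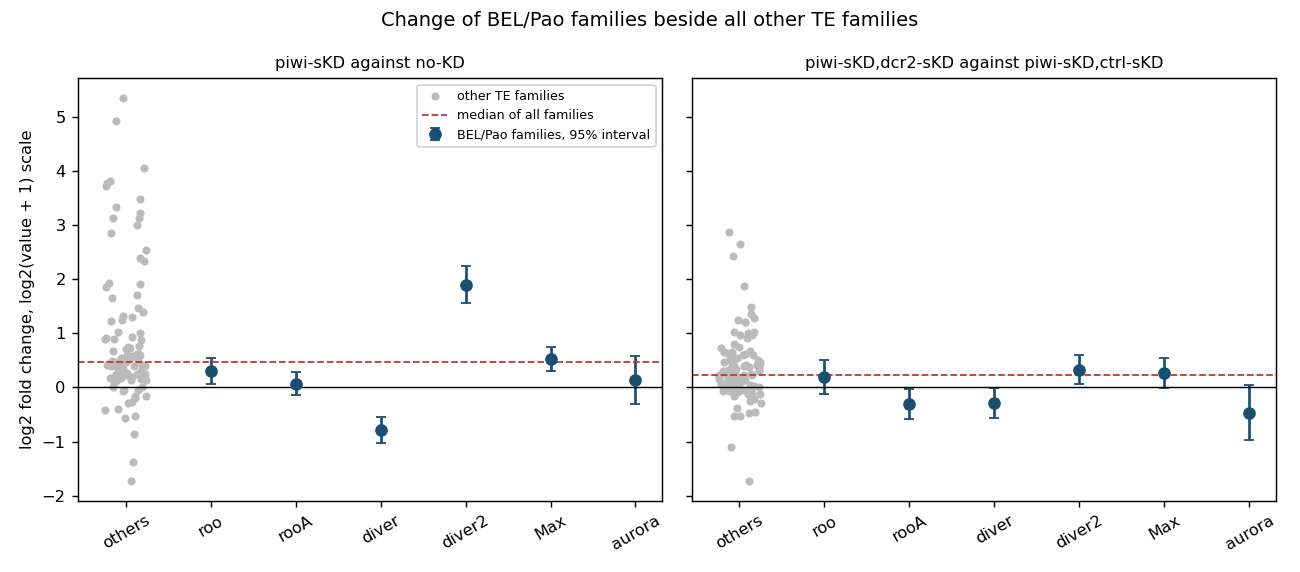
Log2 fold change on the log2(value + 1) scale of the 6 BEL/Pao families with 95% intervals from limma, beside all other TE families (grey points), in both comparisons. The dashed line is the median of all families, at 0.47 and 0.24. In piwi-sKD against no-KD diver lies at -0.79 and diver2 at 1.90, and in the second comparison the 6 families lie between -0.47 and 0.33.

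The other LTR families give the setting for these values. The median log2 fold change of the 6 BEL/Pao families was 0.22 in piwi-sKD against no-KD, below the 0.47 of all families, and 4 of the 6 lay below that median. Of the 46 Ty3/gypsy families 32 were higher and 1 lower, with a median of 0.80, and 21 were more than 2-fold higher. Of the Ty1/copia pair 1 was higher. Non-LTR families (34 tested, 14 higher and 3 lower) and DNA elements (21 tested, 10 higher and 1 lower) both had a median of 0.40. These counts and medians describe the lists, and no test between lists was made.

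Dcr2 depletion on top of Piwi depletion gave no call among the BEL/Pao families. With limma 0 of the 6 families were higher and 0 lower, where 27.3% of all families were higher and 3.64% lower. None was past 2-fold in either direction, against 11.9% of families higher and 2.75% lower. At an unadjusted limma p under 0.05 there were 3 (rooA, diver and diver2). The share of all families under it was not counted, so nothing about the members is drawn from this count. With voom precision weights, an alternative chosen after seeing the data, diver2 was higher and rooA and diver were lower at limma adjusted p-values of 0.0214, 0.0406 and 0.0447. With these weights 37 of all 110 families were called higher and 6 lower. The 2 groups did not overlap for any of the 6 families, 3 higher and 3 lower in piwi-sKD,dcr2-sKD, against 54.5% and 11.8% of all families.

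Diver2 came nearest to the threshold. It was at 763.9 and 791.1 normalised counts in the control double knockdown and at 1069 and 895.7 in the Dcr2 double knockdown. The second pair was higher but uneven, with a difference of 3.95 times its counting SD. Its log2 fold change was 0.33 ± 0.14 (SE, n = 2 per group; limma adjusted p = 0.0516), 0.09 above the median of all families. It passed at 0.0334 without piwi-sKD,ctrl-sKD replicate 2, and the log2 fold change was 0.20 without piwi-sKD,dcr2-sKD replicate 1. It was 0.08 with samples scaled on the median deviation of families, and below 0 under the other 3 scalings.

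Diver was at 994.9 and 970.4 normalised counts in the control double knockdown and at 719.7 and 900.9 in the Dcr2 double knockdown. The 2 treated samples were far apart, the lower of them replicate 1, which was the higher for diver2. The log2 fold change of diver was -0.29 ± 0.14 (SE, n = 2 per group; limma adjusted p = 0.0934). It was -0.13 without piwi-sKD,dcr2-sKD replicate 1 and -0.45 without replicate 2 of that group, so its size depended on which library was kept. Under the 4 other scalings diver was lower at the threshold, from -1.01 to -0.54. These scalings called 13 to 65 of all 110 families lower, against 4 with the normalised values as deposited. With the latter diver lay 0.53 below the median of all families.

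RooA was at 1854 and 1644 normalised counts in the control double knockdown and at 1326 and 1511 in the Dcr2 double knockdown. All 4 samples were spread widely, though the groups did not overlap. The log2 fold change was -0.30 ± 0.14 (SE, n = 2 per group; limma adjusted p = 0.0762), and -0.39 without piwi-sKD,ctrl-sKD replicate 2. Under the 4 other scalings rooA was lower at the threshold (-1.02 to -0.55), as were 13 to 65 of all families. RooA ranked 102 and diver 101 of 110 families from the highest change.

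Aurora was at 44.1 and 38.5 normalised counts in the control double knockdown and at 27.0 and 32.2 in the Dcr2 double knockdown, from 29 to 41 reads a library. Its log2 fold change of -0.47 ± 0.26 (SE, n = 2 per group; limma adjusted p = 0.149) had a 95% interval from -0.98 to 0.04. It was lower at the threshold without a mean-variance trend (limma adjusted p = 0.0339) and under the 4 other scalings (-1.17 to -0.72). Under these scalings 13 to 65 of all families were lower. The group means, 41.3 and 29.6, lay further apart than the counting SD of a library, which was 5.01 to 6.88 normalised counts. The nearest samples of the groups, at 38.5 and 32.2, were apart by about the counting SD of a library.

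Roo and Max stayed near the shift of all families. Roo was at 5822 and 5467 normalised counts in the control double knockdown and at 6339 and 6546 in the Dcr2 double knockdown, with a log2 fold change of 0.19 ± 0.16 (SE, n = 2 per group; limma adjusted p = 0.379; 95% interval -0.12 to 0.50). Max was at 655.4 and 687.9 and then at 831.5 and 781.4, with a log2 fold change of 0.26 ± 0.14 (SE, n = 2 per group; limma adjusted p = 0.135; 95% interval -0.01 to 0.54). Relative to the median of all families roo was 0.05 lower and Max 0.02 higher, and both turned below 0 when samples were centred on a median level or the TE sum was made equal.

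The BEL/Pao median was -0.05 in this comparison, against 0.24 for all families and 0.32 for the 46 Ty3/gypsy families, of which 18 were higher and 4 lower. Non-LTR families (8 of 35 higher, 0 lower) had a median of 0.26 and DNA elements (3 of 21 higher, 0 lower) of 0.15.

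The ratio of related families within a library does not use the size factors, so it can be read across the tables. There were 0.427 and 0.371 diver2 reads for each diver read in no-KD, against 2.23 and 2.98 in piwi-sKD. The control double knockdown had 0.768 and 0.815, and the Dcr2 double knockdown 1.49 and 0.994. Diver thus had more reads than diver2 in every no-KD and piwi-sKD,ctrl-sKD library and in piwi-sKD,dcr2-sKD replicate 2 (where the pair was nearly equal), and fewer in the other 3 libraries. Groups did not overlap in either comparison, but 2 samples against 2 allow no exact two-sided permutation p under 0.333. By their labels the flies of piwi-sKD and piwi-sKD,ctrl-sKD both made the piwi hairpin at 25°C, and their ratios were 2.61 ± 0.53 and 0.792 ± 0.034 (SD, n = 2 each). These groups differ in fly line, in the second hairpin and in the number in their library names, which cannot be told apart. The line of piwi-sKD,ctrl-sKD carried tj-GAL4 / + and sh-piwi over sh-w.

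There were 4.88 and 4.37 roo reads for each rooA read in no-KD, and 5.24 and 5.56 in piwi-sKD. The lowest ratios of roo to rooA were those of piwi-sKD,ctrl-sKD, 3.14 and 3.33, while piwi-sKD,dcr2-sKD was at 4.78 and 4.33, within the range of the no-KD libraries for the first of these and just below it for the second. The mean ratio ran from 3.23 to 5.40 over the 4 groups, and that of diver2 to diver from 0.399 to 2.61.

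**Figure D4:**
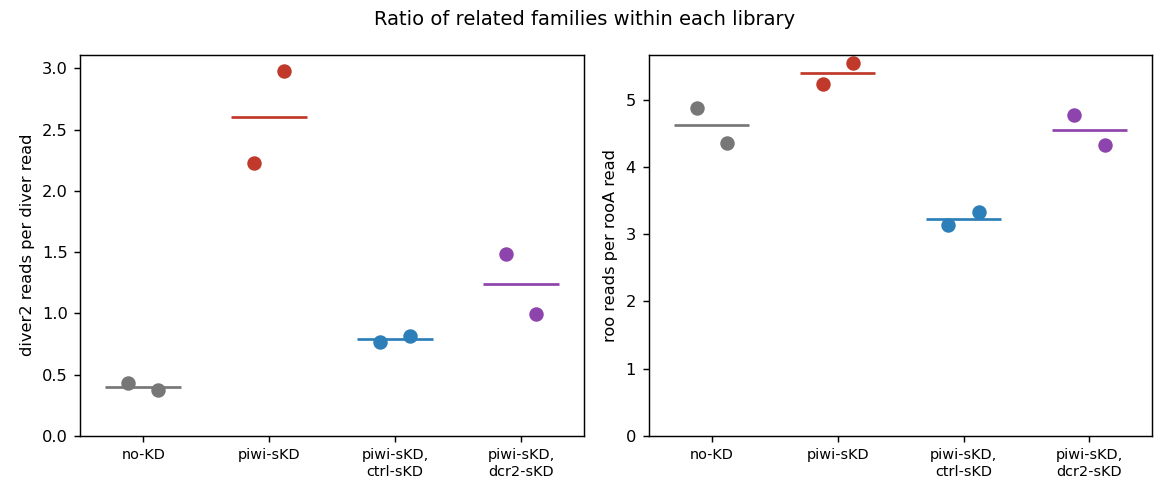
Reads of diver2 per read of diver (left) and of roo per read of rooA (right) in each of the 8 libraries, on linear axes from 0. Points are libraries and lines are group means. The diver2 ratio is 0.427 and 0.371 in no-KD and 2.23 and 2.98 in piwi-sKD, while the roo ratio stays between 3.14 and 5.56 in all libraries.

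As a share of TE reads the 6 families together held 10.6% and 11.0% in the no-KD libraries, 5.50% and 5.03% in those of piwi-sKD, 5.25% and 5.36% in the control double knockdown and 3.22% and 3.63% in the Dcr2 double knockdown. Their summed normalised counts were 8949 ± 327 for no-KD against 11280 ± 499 for piwi-sKD (SD, n = 2 each), so the smaller share went with a larger sum. In the second table the sums were 9867 ± 379 and 10490 ± 251. Roo supplied most of them, between 57.0% and 62.5% of the BEL/Pao reads in every library.

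**Figure D5:**
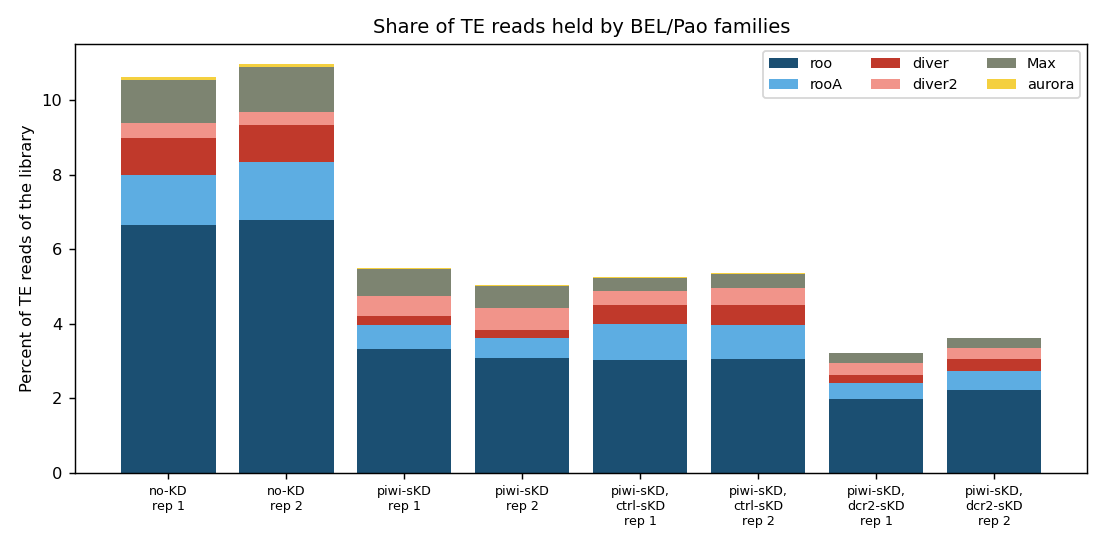
Share of the TE reads of each library (percent, axis from 0) held by each BEL/Pao family, stacked. The 2 no-KD libraries reach 10.6% and 11.0%, the 4 libraries of piwi-sKD and piwi-sKD,ctrl-sKD lie between 5.03% and 5.50%, and those of piwi-sKD,dcr2-sKD are at 3.22% and 3.63%.

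Diver had 0.970% and 0.988% of the TE reads in no-KD and 0.243% and 0.197% in piwi-sKD, where the 95% intervals (Clopper-Pearson, counting error only) ran from 0.222% to 0.267% and from 0.181% to 0.215%. The share was 0.516% and 0.542% in the control and 0.225% and 0.306% in the Dcr2 double knockdown. Diver2 was the only BEL/Pao family with a larger share of TE reads in piwi-sKD than in no-KD, 0.543% and 0.588% against 0.414% and 0.367%.

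Set side by side over the 4 groups, with levels of the 2 tables scaled apart, the order of the group means differed from family to family. Order and overlap between groups of different tables therefore also hold the difference in scaling, and were not tested. Diver was highest in piwi-sKD,ctrl-sKD (982.6 ± 17.4 normalised counts, SD, n = 2), then no-KD (812.5 ± 37.3) and piwi-sKD,dcr2-sKD (810.3 ± 128.1), whose ranges overlapped, and lowest in piwi-sKD (469.6 ± 19.6). Diver2 was highest in piwi-sKD (1219 ± 199), then piwi-sKD,dcr2-sKD (982.3 ± 122.5), piwi-sKD,ctrl-sKD (777.5 ± 19.2) and no-KD (324.8 ± 46.9). The first pair of these was close, with 1079 as the lower piwi-sKD sample and 1069 as the higher piwi-sKD,dcr2-sKD sample.

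Max was highest in piwi-sKD (1406 ± 47 normalised counts) and lower in piwi-sKD,ctrl-sKD (671.6 ± 23.0) than in no-KD (977.0 ± 30.3), with piwi-sKD,dcr2-sKD at 806.4 ± 35.4 and no overlap between neighbours. RooA was highest in piwi-sKD,ctrl-sKD (1749 ± 149), followed by piwi-sKD,dcr2-sKD (1418 ± 131), piwi-sKD (1269 ± 13) and no-KD (1206 ± 41). Roo was at 6850 ± 354 in piwi-sKD, 6443 ± 146 in the Dcr2 and 5645 ± 251 in the control double knockdown, and 5567 ± 247 in no-KD, and the last pair overlapped. Aurora ran from 67.2 ± 0.1 in piwi-sKD and 61.1 ± 6.5 in no-KD to 41.3 ± 3.9 in the control and 29.6 ± 3.7 in the Dcr2 double knockdown, where the counting SDs given above were larger than most of these SDs.

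The families with the most similar patterns were sought over the 8 libraries, each set relative to the control group of its table, as the root mean square (RMS) difference of log2 levels. For roo these were opus (0.05), INE-1 (0.08) and the DNA element also known as hoppel (0.08), against a median of 0.30 over the 104 families compared. For rooA they were aurora (0.11), G5A (0.12) and Tom1 (0.16), and rooA was in turn the nearest to aurora, so this was the only pair within BEL/Pao. Max lay nearest to the non-LTR families jockey (0.09), I (0.10) and G4 (0.10). For diver they were TART-B (0.22), Fw2 (0.24) and TART-A (0.28), all non-LTR, against a median of 0.72. For diver2 they were Quasimodo (0.15), S (0.18) and transib1 (0.22), against a median of 0.81. Neither member of the diver pair was among the nearest of the other.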

How the data were processed

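PolyA-enriched ovarian RNA from 8 samples was analysed (2 per group, groups from the sample titles). The authors trimmed reads with UrQt, counted genes after TopHat2 alignment, counted TE families with TEcount on TE copies of the reference genome, and normalised both together with DESeq2 (1.10 per the labels, which also name dm3). The deposited signal is the read count per TE family divided by the sample's size factor, in 2 tables of 111 families and 4 samples, and 0 columns were left out. In each sample 100% of values were whole multiples of a single step to within 1e-06 reads, and these multiples were taken as the TE reads. How reads matching several families were assigned is not given in the sources used here.

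Fold changes were tested within a table with limma 3.58.1 (R 4.3.3, mean-variance trend, pseudocount 1, two-sided, Benjamini-Hochberg adjustment) over the 109 or 110 families not at 0 in every sample. Prior degrees of freedom were 6.11 in the first comparison and infinite in the second, so that its p-values use the spread of families of similar level together. The fit was also run on simulated data with the same dispersion in all families and groups. The spread between replicates of these samples differed by group, so nothing is drawn from that run here. Whether replicates came from separate fly cultures is not stated. In the first comparison p-values measure the spread between these samples, in part pooled over families. In the second a family's own spread between replicates has no weight, also where its replicates were far apart, as for diver. The members and lists were chosen with earlier results of these data known. All 6 members are named, with the 3 families nearest to each among those averaging 10 or more normalised counts in both tables. Alternatives were other scalings, pseudocounts (0.5 and 10), a filter at 10, variance models, a replicate block and leaving out each replicate. Sequence shared between members was not analysed here.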

Additional observations from a re-analysis of the deposited data

How the results depend on the processing

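The 12 log2 fold changes of the 6 families were recomputed under 14 alternatives each, which gave 168 values. Direction and side of the limma threshold were kept by 119, 25 reversed, 6 became weaker and 18 stronger, and all reversals came from scalings on TE families, which shift all families nearly alike. Diver and diver2 in piwi-sKD against no-KD kept both throughout.

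Centring each sample on the median level over all families gave log2 fold changes in the first comparison of -0.87 for roo, -1.10 for rooA, -0.65 for Max and -1.03 for aurora, with 22 families called higher and 70 lower. In the second comparison they were -0.33 for roo, -0.83 for rooA, -0.81 for diver, -0.19 for diver2, -0.26 for Max and -0.99 for aurora, with 15 and 43. With that of non-LTR and DNA families the first comparison gave -0.25 for roo, -0.47 for rooA, -0.022 for Max and -0.41 for aurora, with 30 and 19 families. The second gave -0.26 for roo, -0.75 for rooA, -0.74 for diver, -0.12 for diver2, -0.19 for Max and -0.92 for aurora, with 17 and 34. An equal TE sum gave in the first -1.07 for roo, -1.30 for rooA, -0.84 for Max and -1.21 for aurora, with 22 and 78. The second gave -0.53 for roo, -1.02 for rooA, -1.01 for diver, -0.39 for diver2, -0.46 for Max and -1.17 for aurora, with 12 and 65. Scaled on the median deviation of families, the first gave -0.21 for roo, -0.44 for rooA, 0.011 for Max and -0.37 for aurora, with 31 and 23, and the second gave -0.059 for roo, -0.55 for rooA, -0.54 for diver and -0.72 for aurora, with 13 families lower.

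Without a mean-variance trend roo was 0.30 in the first comparison (limma adjusted p = 0.0824) and aurora -0.47 in the second (limma adjusted p = 0.0339). With voom precision weights rooA, diver and diver2 were at -0.30, -0.29 and 0.33 in the second, with 37 families called higher and 6 lower.

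Same-numbered samples share only a number, and their deviations correlated at -0.130 and 0.250 over 105 families. With the replicate block roo was 0.30 in the first comparison (limma adjusted p = 0.158), and 53 families were called higher and 5 lower there, 33 and 3 in the second. With the numbers crossed, 64 and 8 were called in the first and 36 and 4 in the second.

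With each replicate left out in turn, the first comparison gave 0.25 to 0.35 for roo, 0.039 to 0.11 for rooA, 0.031 to 0.25 for aurora and 3 to 5 families lower. The second gave -0.40 to -0.21 for rooA, -0.45 to -0.13 for diver, 0.20 to 0.46 for diver2 and 2 to 5 families lower. Count tests with edgeR and DESeq2 were planned and were not run, because too few low values were present to establish that the recovered reads are the original counts. The voom fit, the counting SDs and the Clopper-Pearson intervals use these recovered reads and share this limit. Depth limits aurora most, with at most 76 reads in a library.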
